A study of Homo sapiens with 12 samples.

Results

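Immunoglobulin transcripts were analysed in 3 MCL cell lines to establish which heavy and light chain genes each line expressed and how their levels stood under ironomycin, ibrutinib and the 2 drugs together. The genes were all those of the raw count table whose symbols mark an immunoglobulin V, D, J or constant segment or a surrogate light chain gene (IGHV, IGHD, IGHJ, IGHM, IGHG, IGHA, IGHE, IGKV, IGKJ, IGKC, IGLV, IGLJ, IGLC or IGLL, without IGHMBP2) and that had 10 or more reads in at least 1 library. This rule kept 112 of the 386 immunoglobulin symbols of the table, which lists 63677 genes in all. The read counts themselves chose the genes, so their levels are given as a description, with no test.

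MCL is a lymphoma of mature B cells, and JEKO1, JVM2 and MAVER1 are established human lines, each 1 culture. All libraries were of polyadenylated RNA taken after 48 h. Each line gave 1 control library, 1 with ironomycin (an iron-sequestering salinomycin derivative, 50 nM in JEKO1 and 250 nM in JVM2 and MAVER1), 1 with ibrutinib (an inhibitor of BTK, a kinase of B-cell receptor signaling; JEKO1 received 0.5 μM, JVM2 1.5 μM and MAVER1 6.25 μM) and 1 with both at those doses. Dose and line therefore cannot be told apart, except that JVM2 and MAVER1 shared the ironomycin dose. Library totals ran from 35448523 to 38630809 reads, and the B-cell markers MS4A1, CD79A, CD79B, PAX5 and CD22 were above 1 CPM (counts scaled by library size to a common total) in each line.

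A B cell assembles its heavy chain gene from 1 V, 1 D and 1 J segment, and its light chain gene from 1 V and 1 J segment of either the kappa or the lambda locus. Because 1 productive rearrangement of each kind is normally kept, cells descended from 1 founder share their V genes and are restricted to 1 light chain type. IGHM and IGHD, the mu and delta constant genes, are spliced alternatively from the same primary transcript, and class switching replaces them by a gamma, alpha or epsilon constant gene. The surrogate light chain, made of IGLL1 and VPREB1, pairs with the mu chain in precursor B cells before a light chain exists.

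The coding sequences of 3 V genes that led their class in a line are shown, by their last 300 bases. Each stands for part of the receptor of a line, as far as the symbol is right. They are the reference sequences of GENCODE v29 (GRCh38), 5′ to 3′ on the coding strand, and not the rearranged copies carried by the lines. The capitals mark the codon of the conserved cysteine near the 3′ end of the V segment, after which the J segment (or D, in the heavy chain) is joined.
IGHV2-70D: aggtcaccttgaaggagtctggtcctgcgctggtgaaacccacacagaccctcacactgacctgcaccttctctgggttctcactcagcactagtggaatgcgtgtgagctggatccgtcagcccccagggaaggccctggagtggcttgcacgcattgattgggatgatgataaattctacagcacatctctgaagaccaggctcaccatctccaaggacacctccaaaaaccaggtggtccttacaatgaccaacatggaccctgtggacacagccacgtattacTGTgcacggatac
IGLV2-14: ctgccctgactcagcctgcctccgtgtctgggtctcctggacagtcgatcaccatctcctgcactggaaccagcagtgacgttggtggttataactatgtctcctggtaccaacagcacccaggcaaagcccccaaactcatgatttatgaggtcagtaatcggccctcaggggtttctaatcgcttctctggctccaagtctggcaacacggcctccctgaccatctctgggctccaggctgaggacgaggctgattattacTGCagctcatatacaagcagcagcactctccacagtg
IGLV3-1: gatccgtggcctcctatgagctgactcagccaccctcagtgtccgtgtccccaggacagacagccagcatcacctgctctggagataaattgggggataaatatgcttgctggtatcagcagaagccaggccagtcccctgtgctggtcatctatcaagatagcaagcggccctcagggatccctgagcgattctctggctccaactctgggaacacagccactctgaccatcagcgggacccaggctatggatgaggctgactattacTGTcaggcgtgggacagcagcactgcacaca

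The V genes had close relatives in the genome, which matters for how reads were assigned. IGKV3-20 shared 98.6% of its coding bases with IGKV3D-20, IGHV2-70D shared 98.9% with IGHV2-70, and IGLV2-14 shared 95.6% with IGLV2-23 and 94.6% with IGLV2-18. IGLV3-1 shared 82.4% with IGLV3-21. The lambda constant genes IGLC2 and IGLC3 differed at 3 of 317 bases, at G38A, T212C and G247A (the base of IGLC2, its position from the first base of the coding sequence, and the base of IGLC3). The stretch from base 28 to base 257 is shown for both genes, with the differing bases in capitals, since counts of the pair can be split between them.
IGLC2: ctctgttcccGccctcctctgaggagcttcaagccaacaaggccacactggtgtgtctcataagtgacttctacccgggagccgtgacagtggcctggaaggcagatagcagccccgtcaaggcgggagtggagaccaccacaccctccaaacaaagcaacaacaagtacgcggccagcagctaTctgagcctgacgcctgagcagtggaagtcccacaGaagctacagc
IGLC3: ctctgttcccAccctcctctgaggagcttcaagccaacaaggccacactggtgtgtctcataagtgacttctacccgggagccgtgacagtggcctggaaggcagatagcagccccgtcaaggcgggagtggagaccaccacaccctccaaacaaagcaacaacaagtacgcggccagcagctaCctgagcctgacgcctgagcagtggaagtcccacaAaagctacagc
Counts of such pairs are uncertain as to the single gene. They are given below under each symbol as counted, without pooling, so a named gene may stand for its close relative.

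Of the 112 genes, 34 belonged to the heavy locus family, 44 to the kappa family and 34 to the lambda family, the surrogate light chain genes included. In GENCODE v29, 33 of the heavy genes lie on chromosome 14, 39 of the kappa genes on chromosome 2 and all 34 of the lambda genes on chromosome 22, and the remaining 1 heavy and 5 kappa genes are copies on other chromosomes. By class there were 20 heavy V, 4 heavy J, 10 heavy constant, 41 kappa V, 3 kappa J, 20 lambda V, 5 lambda J and 6 lambda constant genes and 3 genes of the surrogate light chain family (IGLL1, IGLL5 and the pseudogene IGLL3P). None of the 33 heavy D segments reached 10 reads (IGHD itself is the delta constant gene). Pseudogenes made up 27 of the 112, and their reads were 2.31% of the immunoglobulin reads in JEKO1, 0.0391% in JVM2 and 0.220% in MAVER1.

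The threshold fell among genes with hardly any reads. IGLV1-50, IGKV1-8 and IGHV4-34 were kept with a highest count of 10 reads, while IGKV1-6, IGLJ4 and IGLV3-7 were left out with 9. Of the 112 genes, 62 had a highest count under 100 and 10 reached 10000 or more. JEKO1 had 99 of them at 10 or more reads in a library, JVM2 had 32 and MAVER1 had 45. In all 3 lines 16 genes reached 10 reads, 53 did so in JEKO1 alone, 7 in JVM2 alone and 4 in MAVER1 alone.

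Each line had its own leading light chain V gene. JEKO1 was a kappa line, with 99.2% of its light chain V reads on kappa genes, while 99.9% of the light chain V reads of JVM2 and 99.9% of those of MAVER1 were on lambda genes. The heatmap of the genes with the most reads shows the 3 patterns.

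**Figure D1:**
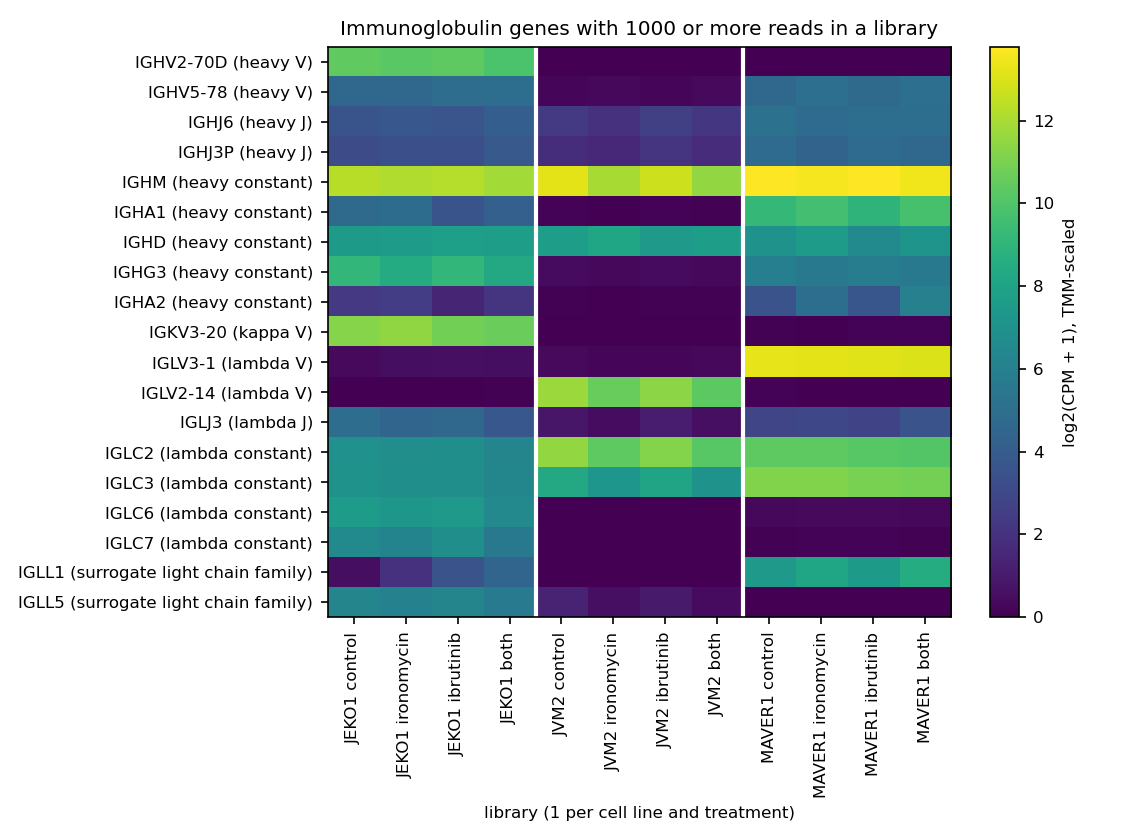
Level of the 19 immunoglobulin genes with 1000 or more reads in a library (rows) in each of the 12 libraries (columns, 3 blocks of 4 by line), as log2(CPM + 1) with TMM scaling. IGHV2-70D and IGKV3-20 are bright in JEKO1, IGLV2-14 in JVM2, and IGLV3-1, IGLC3 and IGLL1 in MAVER1. IGLC2 is bright in both JVM2 and MAVER1, whereas IGHM is high in every library.

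In JEKO1, IGHV2-70D (ENSG00000211974) held 199403 of 207319 heavy V reads over the 4 libraries, or 96.2%. Its share was 94.8% to 97.0% in single libraries (Wilson 95% intervals within 94.6% to 97.1%, covering counting error only). It had at most 1 read in any library of the other lines. The next heavy V gene in JEKO1 was the pseudogene IGHV5-78 with 4361 reads, followed by IGHV2-5, of the same subgroup as IGHV2-70D, with 1955. IGKV3-20 (ENSG00000239951) held 357523 of 370141 kappa V reads, or 96.6%, and 94.8% to 97.3% in single libraries. Of the 12618 reads on the other 40 kappa V genes, 32.9% fell on 5 genes of subgroup IGKV3, led by IGKV3D-20 with 2403.

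In JVM2, IGLV2-14 (ENSG00000211666) held 316605 of 317769 lambda V reads, or 99.6%, and 99.5% to 99.7% in single libraries. Of the 1164 reads on other lambda V genes, 81.3% lay on 3 genes of the same subgroup, IGLV2-23 with 745 and IGLV2-18 with 158 among them. In MAVER1, IGLV3-1 (ENSG00000211673) held 1368825 of 1371342 lambda V reads, or 99.8%. Compared per length, the control library of MAVER1 had 24622 CPM per kb of IGLV3-1, that of JVM2 8452 of IGLV2-14, and that of JEKO1 6171 of IGKV3-20 and 3184 of IGHV2-70D. The light chain V level was thus highest in MAVER1 on a scale that allows for gene length.

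The heavy V genes of JVM2 and MAVER1 were almost without reads. JVM2 had 697 heavy V reads in all, 378 of them on IGHV1OR15-1, an orphan V segment outside the heavy locus, and 113 on IGHV3-20. MAVER1 had 4841, of which 4216 (87.1%) lay on the pseudogene IGHV5-78. Against this stood the gene identifier ENSG00000211940, to which no symbol could be matched and which is therefore not among the 112 genes. It had 314114 reads in JVM2, 317014 in MAVER1 and 10 in JEKO1, 451 and 65.5 times the heavy V reads counted in JVM2 and MAVER1. It was singled out after its values were seen, as the identifier without a symbol that had the most reads. What gene it is was not settled here, and the heavy V gene of JVM2 and MAVER1 is left unnamed.

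J segments are short and had far fewer reads than the constant genes beside them. IGHJ6 led the heavy J segments in each line, with 38.2% of 5509 reads in JEKO1, 36.5% of 1529 in JVM2 and 41.8% of 11017 in MAVER1, and no J segment reached the dominance of the V genes. Among lambda J segments, IGLJ2 held 90.8% of 1065 reads in JVM2, while IGLJ3 held 63.5% and IGLJ2 35.8% of 1742 in MAVER1. In MAVER1 this split stood close to that of the constant genes that follow each J segment, IGLC3 with 63.4% and IGLC2 with 36.5%. The kappa J segments IGKJ3, IGKJ4 and IGKJ5 shared 3250 reads in JEKO1, 224 in JVM2 and 0 in MAVER1. IGHJ1, IGHJ2, IGKJ1 and IGKJ2 had 0 reads in every library.

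**Figure D2:**
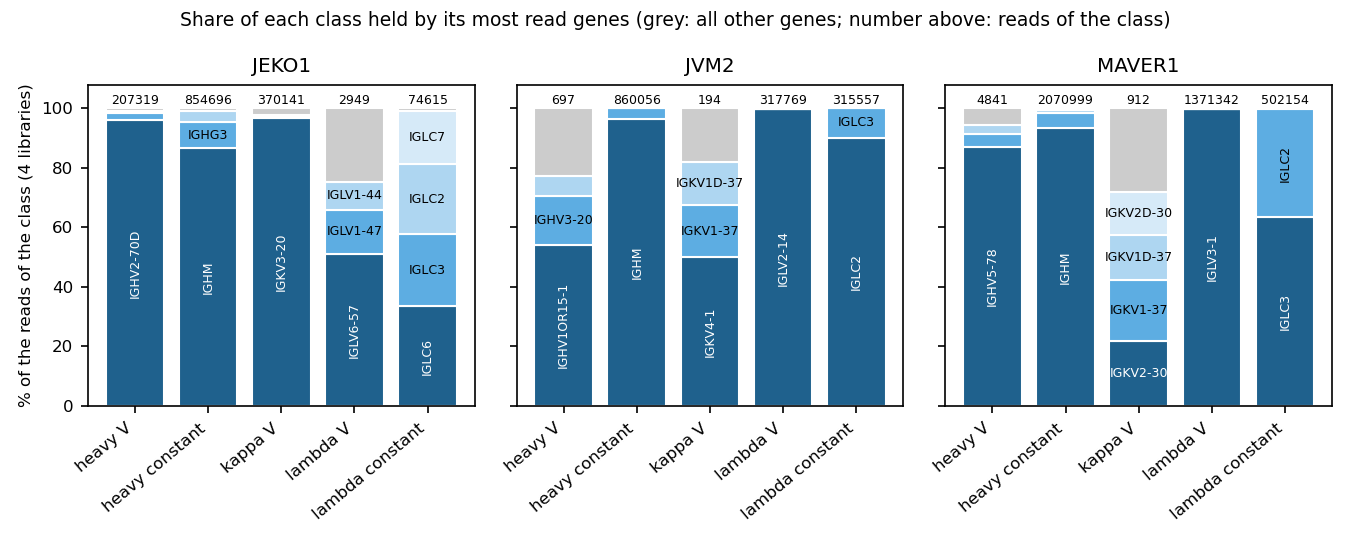
Share of the reads of 5 classes of immunoglobulin gene (bars) held by the most read genes (blue shades, named where over 8%) and all other genes (grey) over the 4 libraries of each line, with the reads of the class above the bar. A single V gene fills the heavy V and kappa V bars of JEKO1 and the lambda V bars of JVM2 and MAVER1, and the bars with mixed colours among V genes rest on 194 to 2949 reads, apart from heavy V in MAVER1 with 4841.

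IGHM was the leading heavy constant gene in each line. It held 86.8% of 854696 heavy constant reads in JEKO1, 96.5% of 860056 in JVM2 and 93.5% of 2070999 in MAVER1. In the control libraries IGHM stood at 2653 CPM per kb in JEKO1, 5048 in JVM2 and 7536 in MAVER1, and IGHD at 107, 118 and 77.7. The second constant gene differed between lines: IGHG3 (gamma) held 8.50% in JEKO1, IGHD 3.53% in JVM2 and IGHA1 (alpha) 4.94% in MAVER1. In JVM2 all constant genes other than IGHM and IGHD were at or under 87 reads over the 4 libraries.

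Among lambda constant genes, IGLC2 held 90.2% of 315557 reads in JVM2, and IGLC3 with IGLC2 held nearly all of 502154 in MAVER1. JEKO1 had 74615 lambda constant reads spread over the pseudogene IGLC6 (33.5%), IGLC3 (24.3%), IGLC2 (23.3%) and IGLC7 (13399 reads). Its lambda V genes, by contrast, had 2949 reads in all, 1509 of them on IGLV6-57. IGKC, the only kappa constant gene, had at most 1 read in any library, JEKO1 included, and IGLC1 had 0. The reads of a kappa constant region in JEKO1 are thus not represented in the table, and the cause was not tested. IGLL5, which overlaps IGLC1 and IGLJ1 in the GENCODE annotation so that reads of these genes cannot be told apart, had 10970 reads in JEKO1, 119 in JVM2 and 1 in MAVER1.

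IGLL1, the lambda5 subunit of the surrogate light chain, followed none of these patterns. It had 6287 to 13757 reads in the libraries of MAVER1, 17 to 900 in JEKO1 and 0 in JVM2, where 3 reads of a library are the limit that a count of 0 allows.

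The same gene led its class in each of the 4 libraries in 23 of 26 pairs of line and class. The 3 exceptions were classes with few reads. In JVM2 the kappa J segments (224 reads in all) were led by IGKJ4 in the control and by IGKJ3 in the other libraries, and the surrogate light chain family by IGLL5 in the control (53 reads against 18 of IGLL3P) and with ibrutinib but by IGLL3P with ironomycin (27 against 18) and with both drugs (33 against 12). In MAVER1 the kappa V genes (912 reads in all) were led by IGKV2-30 in the control and with ibrutinib, and by IGKV1-37 with ironomycin and with both drugs.

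Immunoglobulin genes took 1.50% of all reads in the JVM2 control and 0.692%, 1.15% and 0.561% with ironomycin, ibrutinib and both. In MAVER1 they took 2.68%, 2.65%, 2.62% and 2.46% in the same order, and in JEKO1 1.09%, 1.12%, 1.01% and 0.893%. The 5 genes with the most reads held 91.3% of the immunoglobulin reads in JEKO1, 99.6% in JVM2 and 97.7% in MAVER1. The share lay furthest below its control in JVM2 with both drugs, and these shares are given with no test.

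The split between near-identical genes moved little with treatment. The reads of IGLC2 were 56.9% to 58.4% of those of IGLC3 in MAVER1, 93.6% to 98.6% in JEKO1 and 874% to 971% in JVM2. Ratios of a constant to a V gene are given for control, ironomycin, ibrutinib and both. In MAVER1 IGLC3 had 23.3%, 23.9%, 23.3% and 22.3% of the reads of IGLV3-1. In JVM2 IGLC2 had 89.6%, 89.0%, 88.0% and 95.5% of those of IGLV2-14. In JEKO1 IGHM had 359%, 373%, 361% and 403% of those of IGHV2-70D. The JVM2 and JEKO1 ratios were highest with both drugs.

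The effect of the treatments was tested with edgeR's quasi-likelihood test over 18674 genes, including 90 of the 112 immunoglobulin genes. The remaining 22 had too few reads to pass the filter. Calls required a Benjamini-Hochberg adjusted p under 0.05 and a change of 1 or more on the log2 scale, up or down, and "rose" or "fell" is used only of called genes. In bulk RNA, fewer cells that express a gene and less RNA per cell cannot be told apart.

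Over the 3 lines together, no immunoglobulin gene was called with ironomycin or with ibrutinib against control, where 0.214% and 0% of all genes tested were called. At an unadjusted p under 0.05 there were 14 and 1 of the 90, beside 4198 and 680 of all 18674 genes, so that the members' share lay below that of all genes. The median log2 fold change of the 90 genes was -0.19 with ironomycin and -0.03 with ibrutinib, beside 0.03 and 0.00 for all genes (-0.0007 with ibrutinib). DESeq2 called 2 and 0. With JVM2 left out, 7 were called with ironomycin. The share of all genes called in that fit was not counted, so the 7 cannot be set against it.

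With both drugs against control, 9 of the 90 immunoglobulin genes were called, 7 lower and 2 higher, against 6.29% of all genes tested (1.48% lower and 4.81% higher). With library totals in place of TMM scaling there were 4 genes called lower and 5 called higher. The genes that fell were mainly lambda V genes: IGLV1-44 (log2 fold change -1.65, standard error 0.32, adjusted p = 0.00629), IGLV1-47 (-1.25, standard error 0.30, adjusted p = 0.0192), IGLV2-14 (-1.43) and the pseudogene IGLVI-70 (-1.45). The others were the constant genes IGLC7 (-1.03) and IGHE (-1.78) and IGLC6 (-1.10), a pseudogene of the lambda constant class. The kappa pair IGKV1-37 (1.82) and IGKV1D-37 (1.59) rose, and as the aligned coding bases of the pair are identical they count as 1 observation. These values pool lines in which a gene was expressed with lines in which it was not.

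IGLV1-47 is a case where 2 lines carried the value. Its reads for control, ironomycin, ibrutinib and both were 138, 57, 177 and 65 in JEKO1, 130, 70, 109 and 54 in MAVER1, and 0 throughout in JVM2. IGLV1-44 had 95, 28, 122 and 28 reads in JEKO1, 104, 41, 121 and 36 in MAVER1, and at most 1 in JVM2. In both lines the 2 libraries with ironomycin lay below the 2 without it. Neither gene belongs to the dominant receptor of a line: IGLV1-47 was 14.8% of the 2949 lambda V reads in JEKO1, a kappa line. The pair is identical at 344 of 351 aligned coding bases, so the 2 genes are not independent observations.

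IGLV2-14, by contrast, was called from JVM2 alone, since the other lines had at most 3 reads of it in a library. IGLC6 and IGLC7 had at most 10 reads in any library of JVM2 or MAVER1, and IGHE had at most 2, so their values rest on JEKO1. With replicate 1 (JEKO1) or replicate 3 (MAVER1) left out 0 of the 9 calls were made, and without the cell line term 0.

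Against ibrutinib alone, the combination gave 8 calls among the 90 genes (4.66% of all genes tested), 7 lower (0.744%) and 1 higher (3.91%), or 6 lower and 3 higher with library totals in place of TMM. IGLV1-40 (-2.79), IGKV2-26 (-2.24), IGLV1-44 (-1.92), IGLV1-47 (-1.31), IGLC7 (-1.28), IGHV5-51 (-1.20) and IGLV2-14 (-1.07) fell, and IGHA2 (1.88, standard error 0.49, adjusted p = 0.0214) rose. This comparison shares the combination libraries with the previous one. With replicate 1 or replicate 3 left out 0 of these calls were made, without replicate 2 there were 12, and without the cell line term 0. The share of all genes called in these fits was not counted. Against ironomycin alone, the combination gave 0 calls among the 90 genes and 0% over all genes by edgeR, 12 at an unadjusted p under 0.05 (1970 of all 18674 genes) and 0 by DESeq2.

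Because the lines express different genes, the effect of each drug was also estimated within each line, from the 2 libraries with the drug against the 2 without it. These values come from 1 fit of all 12 libraries with 9 coefficients and 3 residual degrees of freedom, and assume that the 2 drugs add on the log scale and that the lines share 1 spread per gene. With 1 library per line and treatment, the residual spread behind the p-values is the departure from that addition. It is not a spread between repeat libraries or cultures, of which there were none. Many of the 90 genes had few or no reads in a given line. Of the 112 genes, 99 reached 10 reads in a JEKO1 library, 32 in JVM2 and 45 in MAVER1. Counts out of 90 within a line thus include genes nearly silent in that line.

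**Figure D3:**
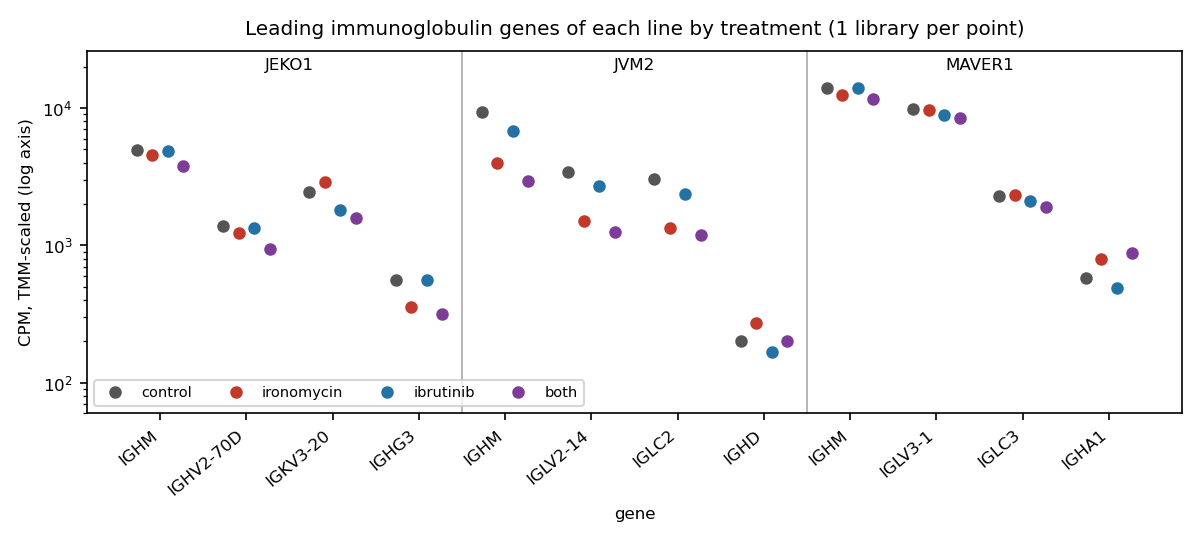
CPM with TMM scaling (log axis) of 4 leading immunoglobulin genes in each line, with 1 point per library coloured by treatment. In JVM2 the libraries with ironomycin and with both drugs lie below the other 2 for IGHM, IGLV2-14 and IGLC2, while the points of IGHM and IGLV3-1 in MAVER1 lie close together.

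JVM2 was the line in which the expressed receptor itself fell with ironomycin. IGHM stood at 9446 CPM in the JVM2 control, 3987 after ironomycin, 6814 after ibrutinib and 2961 after the combination. IGLV2-14 stood at 3398, 1506, 2699 and 1246 CPM in the same order, and IGLC2 at 3045, 1341, 2376 and 1190. In each case the 2 libraries with ironomycin lay below the 2 without it. The log2 fold change with ironomycin was -1.22 for IGHM (standard error 0.11, adjusted p = 0.000373), -1.14 for IGLV2-14 (standard error 0.09, adjusted p = 0.000698), -1.09 for IGLC2 (standard error 0.11, adjusted p = 0.000698) and -1.02 for IGLC3.

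In all, 7 of the 90 genes were called with ironomycin in JVM2, all lower, against 0.964% of all genes tested (0.364% lower). The other 3 were IGLL5 (-1.62), IGLV2-18 (-1.48) and IGHV3-20 (-1.34), which had 11 to 60 reads in a library. IGLC2 with IGLC3, and IGLV2-14 with IGLV2-18, are related in sequence and not independent. The unnamed identifier ENSG00000211940 had 127457 reads in the JVM2 control, 56724 after ironomycin, 90523 after ibrutinib and 39410 after the combination, and fell with ironomycin (-1.24 ± 0.10, adjusted p = 0.000323). Without any 1 of the 4 JVM2 libraries 0 of the 7 genes were called, although the log2 fold change of IGHM stayed between -1.24 and -1.20 and that of IGLV2-14 between -1.17 and -1.11.

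IGHD, spliced from the same transcript as IGHM, did not follow it in JVM2. It stood at 201 CPM in the control, 270 after ironomycin, 168 after ibrutinib and 201 after the combination, and the ironomycin coefficient was 0.34 ± 0.08 (log2 ± SE, adjusted p = 0.0373), under the minimum for a call. The reads of IGHD were 2.13% of those of IGHM in the JVM2 control and 2.47% with ibrutinib, but 6.76% with ironomycin and 6.80% with both. In MAVER1 the same share was 0.941%, 0.666%, 1.55% and 1.20%, and in JEKO1 3.69%, 4.54%, 4.14% and 5.42%. In each line the share was thus higher with ironomycin than in the control, and higher with both drugs than with ibrutinib. In JVM2 and MAVER1 the 2 libraries with ironomycin also lay above both others. In JEKO1 the ibrutinib library (4.54%) stood above the ironomycin library (4.14%).

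In JEKO1, 13 of the 90 genes were called with ironomycin, 8 lower and 5 higher, against 7.97% of all genes tested (1.85% lower and 6.12% higher). With library totals in place of TMM there were 6 lower and 10 higher. None was a leading gene of a heavy V, kappa V, heavy constant or lambda constant class. IGHM stood at 4963, 4572, 4845 and 3789 CPM for control, ironomycin, ibrutinib and both (log2 fold change -0.24, adjusted p = 0.105), and IGKV3-20 at 2469, 2874, 1812 and 1586 CPM (0.01, adjusted p = 0.958). IGHV2-70D stood at 1382, 1226, 1341 and 941 CPM (-0.34, standard error 0.10, adjusted p = 0.0295), under the minimum.

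The genes that fell in JEKO1 were minor V genes and switched constant genes. IGLV1-44 (-2.02), IGLV1-47 (-1.44), IGLV1-40 (-3.65, with 20, 0, 41 and 5 reads) and the kappa pseudogene IGKV2-26 (-2.43, with 41, 7, 81 and 17) were lambda and kappa V genes. IGHV5-51 (-1.18) and IGHV1OR15-1 (-1.76, with 2 to 13 reads) were heavy V genes. Among constant genes, IGHG1 (-1.05, adjusted p = 0.000588) and IGHE (-1.48, adjusted p = 0.00114, with 189, 72, 126 and 47 reads) fell, and IGHG3, the second constant gene of the line, went from 559 CPM in control to 354 with ironomycin and 319 with both (-0.73, standard error 0.08, adjusted p = 9.05e-05), under the minimum. Those that rose were IGKV1-37 and IGKV1D-37 (both 1.05), IGLVIVOR22-1 (1.54), IGHV1-3 (3.07, with 0 to 8 reads) and IGLL1.

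In MAVER1, 7 of the 90 genes were called with ironomycin, 4 lower and 3 higher, against 6.82% of all genes tested (2.21% lower and 4.61% higher). The receptor genes did not pass the test: IGHM stood at 14099, 12487, 13990 and 11630 CPM (log2 fold change -0.22, adjusted p = 0.132), IGLV3-1 at 9800, 9678, 8969 and 8466 (-0.05, adjusted p = 0.762) and IGLC3 at 2287, 2317, 2092 and 1888 (-0.06, adjusted p = 0.688). The unnamed identifier ENSG00000211940 stood at 2415, 2019, 2416 and 1708 CPM in MAVER1 for control, ironomycin, ibrutinib and both. Both libraries with ironomycin lay below both without it. IGLV1-44 (-1.58), IGHV5-51 (-1.39), IGLV1-40 (-2.06) and IGHV1OR15-1 (3, 0, 6 and 0 reads) fell, and IGKV1-37 (2.13) and IGKV1D-37 (2.01) rose. IGLV1-47 came to -0.98 ± 0.20 (adjusted p = 0.00357), just under the minimum.

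IGHA2, an alpha constant gene, was the only heavy constant gene called in MAVER1. It had 385 reads in the control, 1136 after ironomycin, 441 after ibrutinib and 2434 after the combination, and rose by 1.99 ± 0.20 (log2 ± SE, adjusted p = 6.63e-05). The related IGHA1, with 92.4% of coding bases identical, had 20971 reads in the control, 29871 after ironomycin, 18233 after ibrutinib and 33261 after the combination (0.65, standard error 0.13, adjusted p = 0.00234), under the minimum. In both genes the 2 libraries with ironomycin were the higher ones.

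**Figure D4:**
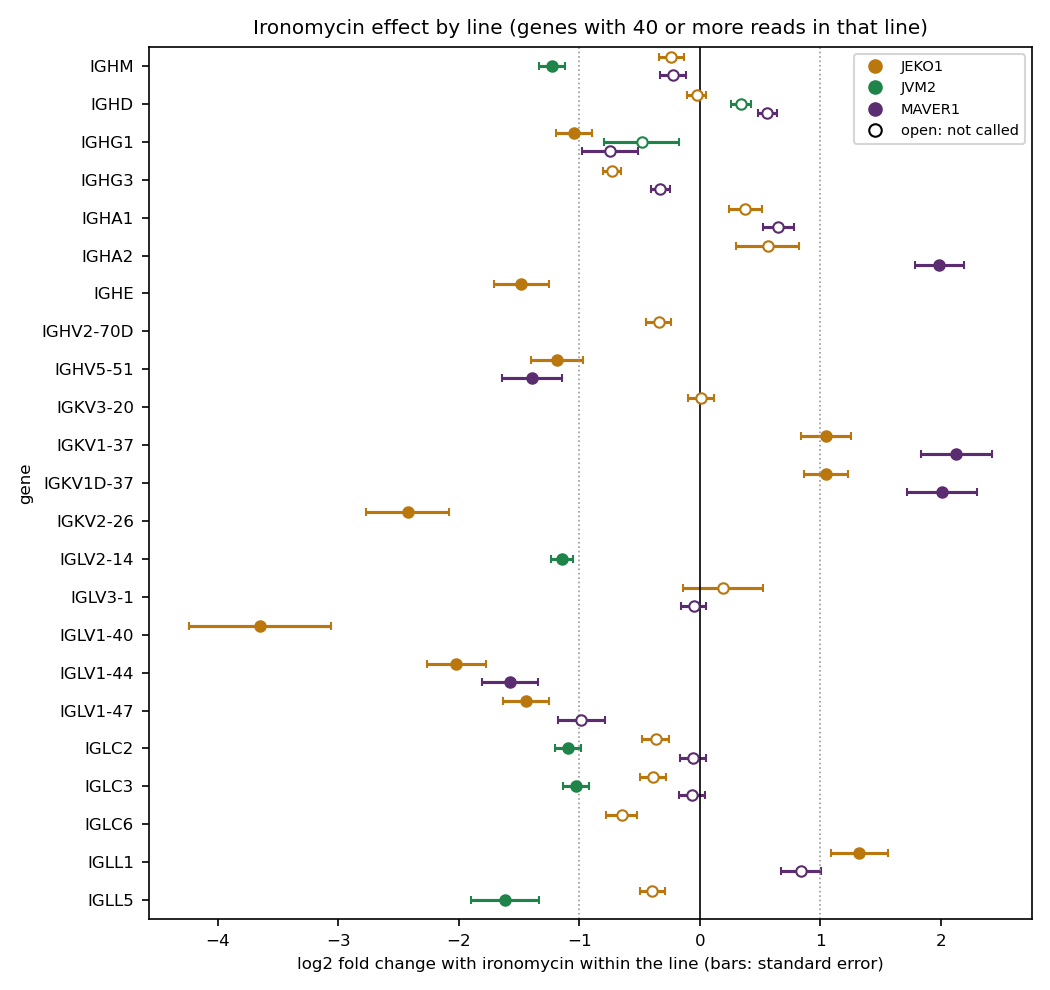
Log2 fold change with ironomycin within each line (x axis, bars give the standard error) of 23 immunoglobulin genes (y axis), shown where the gene had 40 or more reads over the 4 libraries of the line; filled points were called, and dotted lines mark the fold change minimum. IGHM, IGLC2 and IGLC3 are called in JVM2 only, and IGLV1-44, IGHV5-51, IGKV1-37 and IGKV1D-37 are called on the same side in JEKO1 and MAVER1.

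The difference between lines was tested directly. The ironomycin effect differed between the 3 lines for 14 of the 90 genes at an adjusted p under 0.05, against 13.3% of all genes tested. IGHM (adjusted p = 0.00265), IGLC2 (0.00409) and IGLC3 (0.00606) were among them, each with its lowest fold change in JVM2. With JVM2 left out 1 gene differed between the other 2 lines, with MAVER1 left out 7 and with JEKO1 left out 11. The share of all genes was not counted in these fits, so a lower count may follow fewer calls in general. Ironomycin doses were 50 nM in JEKO1 and 250 nM in the other 2 lines, so that a difference from JEKO1 cannot be told apart from dose, whereas JVM2 and MAVER1 had the same dose.

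Ibrutinib called few immunoglobulin genes. In JEKO1, 3 of the 90 were called, against 1.57% of all genes tested (1.01% lower and 0.562% higher). The pseudogene IGLC5 fell (adjusted p = 0.00139, with 248, 224, 98 and 71 reads), and IGKV2D-40 (1.58, with 15 to 60 reads) and IGLL1 (3.35) rose. The dominant kappa V gene IGKV3-20 came to -0.65 ± 0.11 with ibrutinib (log2 ± SE, adjusted p = 0.00726), under the minimum. Without the term for ironomycin 0 were called, and without the control or the ibrutinib library of JEKO1 there were 7. In JVM2 and MAVER1 0 of the 90 were called (0.0589% and 0.246% of all genes tested), 8 in each at an unadjusted p under 0.05 (1612 and 2107 of all 18674 genes) and 0 in each by DESeq2. IGHM had a log2 fold change with ibrutinib of -0.45 in JVM2 (adjusted p = 0.179), -0.15 in JEKO1 (0.432) and -0.06 in MAVER1 (0.897).

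IGLL1 was the immunoglobulin gene with the largest called change by ibrutinib. In JEKO1 it had 17 reads in the control, 121 after ironomycin, 420 after ibrutinib and 900 after the combination, so that each drug stood above control and both together above either. It rose by 3.35 ± 0.25 with ibrutinib (log2 ± SE, adjusted p = 0.000105) and by 1.32 ± 0.24 with ironomycin (adjusted p = 0.0023). In fits without the term for the other drug both calls were lost (3.25, adjusted p = 0.57 with ibrutinib, and 1.14, adjusted p = 0.44 with ironomycin). In MAVER1 it had 6287, 10531, 6832 and 13757 reads in the same order (ironomycin 0.84, standard error 0.17, adjusted p = 0.00332, under the minimum; ibrutinib 0.22, adjusted p = 0.657).

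The genes that act with the surrogate light chain in precursor B cells gave other values. In the list of recombination and diversification genes (9 tested), 3 rose with ibrutinib in JEKO1 (0.562% of all genes tested rose) and 2 in MAVER1 (0.246% of all genes called, up or down). VPREB1, the partner of IGLL1, had 63 reads in control, 42 with ironomycin, 293 with ibrutinib and 88 with the combination in JEKO1, and 54, 14, 255 and 47 in MAVER1. RAG1, a subunit of the recombinase, had 98, 60, 448 and 236 reads in JEKO1 and 150, 62, 716 and 150 in MAVER1. In both lines the library with ibrutinib alone was the highest.

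The log2 fold change with ibrutinib was 1.73 for VPREB1 and 2.09 for RAG1 in JEKO1, and 2.06 and 1.84 in MAVER1. RAG2, the other subunit, rose in JEKO1 at 0, 0, 4 and 11 reads and had 272, 458, 498 and 592 in MAVER1. With ironomycin the direction turned: VPREB1 fell in JEKO1 (-1.39) and MAVER1 (-2.32) and RAG1 fell in MAVER1 (-1.91), while IGLL1 rose in JEKO1. DNTT, which adds bases at the joins, rose with ironomycin in JEKO1 (1.25, with 7 to 48 reads) and in MAVER1 (3.53), where it had 18, 174, 10 and 159 reads. JVM2 had at most 5 reads of RAG1 and 0 of VPREB1 in a library.

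**Figure D5:**
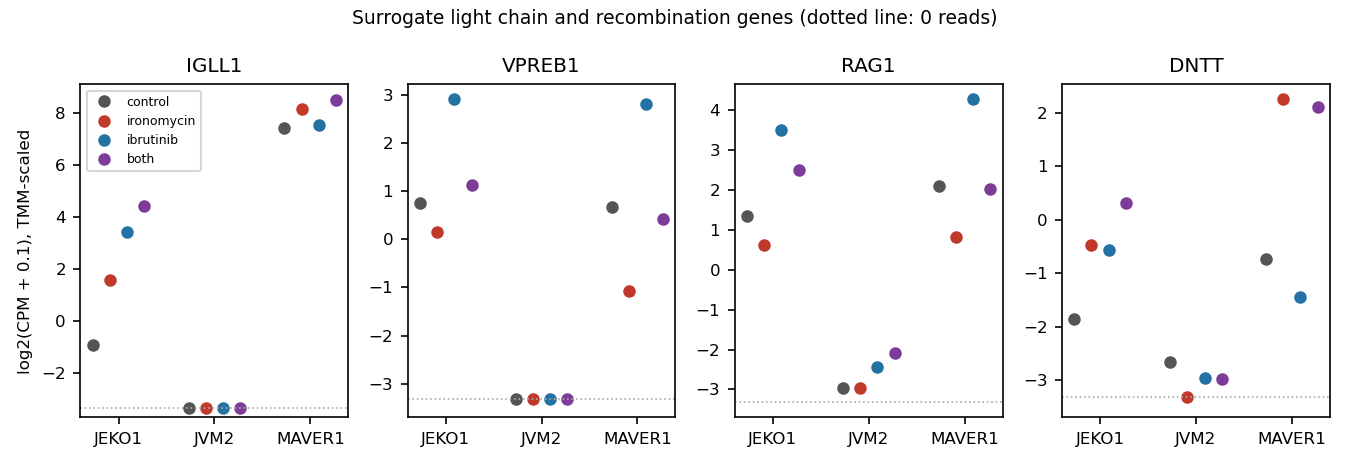
Level of IGLL1, VPREB1, RAG1 and DNTT as log2(CPM + 0.1) with TMM scaling, 1 point per library coloured by treatment, grouped by line; the dotted line marks 0 reads. Ibrutinib alone gives the highest point of VPREB1 and RAG1 in JEKO1 and MAVER1, IGLL1 is highest with both drugs in these lines, and IGLL1 and VPREB1 are at 0 in JVM2.

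Among the other genes of the antibody pathway, the list of assembly and secretion genes (10 tested) had 6 members that rose with ironomycin in JEKO1 (6.12% of all genes tested rose), 2 that fell in JVM2 (0.364% fell) and 1 that rose in MAVER1 (4.61% rose). Those of JEKO1 were the chaperones and folding enzymes HSPA5, HSP90B1 (1.02), MZB1 (1.09), PDIA4 (1.18) and FKBP11 (1.07) with the signal peptidase subunit SEC11C (1.03). Those of JVM2 were JCHAIN (-1.29, adjusted p = 0.000623), the joining chain of secreted IgM, and TENT5C (-1.55), a poly(A) polymerase known to act on immunoglobulin mRNAs. JCHAIN stood at 193, 86.2, 170 and 64.3 CPM in JVM2, an order of treatments like that of IGHM. In MAVER1 FKBP11 (1.14) rose.

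With the same shares of all genes as background, of the 14 transcription factors of immunoglobulin loci, XBP1 (1.52) and IRF4 (1.03) rose with ironomycin in JEKO1, and PRDM1 (1.15) rose and IRF8 (-1.30) fell in MAVER1, and in JVM2 0 were called, 0.964% of all genes being called there. XBP1, the factor of the secretory programme, stood at 1465, 4262, 1663 and 5279 reads in JEKO1, and at 10116, 9304, 9846 and 8855 in JVM2. CD79A and CD79B, which carry the receptor to the surface and signal for it, were not called in any line. With ironomycin their log2 fold changes were -0.71 and -0.62 in JEKO1, -0.19 and -0.22 in JVM2, and -0.54 and -0.59 in MAVER1, so that both values were closest to 0 in JVM2, where IGHM fell. None of the 4 lists had a member called over the 3 lines together with ironomycin or ibrutinib alone.

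Markers of T cells and myeloid cells were at low levels, whereas those of plasma cells were not. The 5 T-cell markers, which include CD5, also known on MCL cells, summed to at most 45.0 CPM, with 1 or 2 of them above 1 CPM in a line, CD3D at 0 in JVM2 and MAVER1 and CD2 at 0 in JEKO1 and MAVER1. The 4 myeloid markers summed to at most 8.73 CPM. The plasma cell markers, which include JCHAIN, MZB1 and PRDM1 from the lists above, summed to 690 CPM in the JVM2 control, 498 after ironomycin, 578 after ibrutinib and 429 after the combination, the same order of libraries as for IGHM. Without JCHAIN the JVM2 sums were 497, 412, 408 and 365 CPM. In JEKO1 the sums were 324, 636, 333 and 600 CPM and in MAVER1 624, 974, 601 and 978, higher in the 2 libraries with ironomycin than in the 2 without it. The part of such cells in the results was not tested.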

How the data were processed

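Polyadenylated RNA of 12 libraries, 1 per line and treatment, was sequenced by the authors, and the deposited values are raw counts of reads for 63677 Ensembl genes, not normalized. The submitters' processing notes name STAR, DESeq2 and GRCh37, without versions or roles, and the counting tool, strand setting and annotation release are not given in the sources used here. Multiply mapping reads may have been dropped or split among near-identical segments. No column was left unused (0).

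Symbols were matched for 52181 genes by identifier. The test was edgeR's quasi-likelihood F-test (version 4.0.16, R 4.3.3) with TMM scaling, the filterByExpr filter, treatment and line as terms and Benjamini-Hochberg adjustment over 18674 genes, and within lines with separate coefficients per drug and line. The line was a block because same-numbered libraries come from the same line: once treatment means were subtracted, they correlated at 0.926 to 0.976. CPM use TMM library sizes. Shares have Wilson 95% intervals, which cover counting error only. Named genes were the leading gene of each line and class, others with at least 10% of a class of at least 100 reads, all called members, IGLV1-44, IGLV1-47, IGLL1, IGLL5, genes nearest the threshold, and called list genes. IGHD, IGHG3, IGHA1 and second-ranked genes were added after their values were seen.

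The genes and lists were chosen with earlier results of these data known. The scripts were tested on simulated data; where the simulated spread differed from gene to gene, more than the nominal share of the called genes was unchanged, so adjusted p-values near the threshold are optimistic. Sequences were aligned with Biopython 1.88, and DESeq2 1.42.0 was an alternative. A few items, 1 V gene sequence and some list genes among them, are not reported here. Python 3.11.15, pandas 2.3.3 and matplotlib 3.10.9 served for tables and plots.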

Additional observations from a re-analysis of the deposited data

Results flagged for a closer look

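The ironomycin effect differed between the 3 lines, by edgeR's test of the difference over 2 coefficients, for 14 of the 90 immunoglobulin genes. It differed for 13.3% of all genes tested. The 14 genes are given with their adjusted p-values. In the expressed receptor these were IGHM (0.00265), IGLC2 (0.00409), IGLC3 (0.00606) and IGHD (0.0177). Among J segments they were IGLJ3 (0.0136), IGLJ2 (0.0147), the pseudogene IGHJ3P (0.0163), IGHJ4 (0.02) and IGHJ6 (0.0272). The others were IGHV1OR15-1 (0.0186), IGKV1-37 (0.0294), IGKV1D-37 (0.0307), IGHA2 (0.0323) and IGLV6-57 (0.0364).

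The directions behind these values differed by gene. IGHM, IGLC2 and IGLC3 were called lower in JVM2 and in no other line. IGHD came to -0.03 in JEKO1 on the log2 scale, against 0.34 in JVM2 and 0.56 in MAVER1. For the J segments, IGHJ4 had 0.55, -0.62 and 0.61 in that order of lines, and IGHJ6 had 0.37, -0.47 and -0.20, at 40 to 1283 reads in a library for the 2 segments. IGHV1OR15-1 had 75, 130, 67 and 106 reads in JVM2 for control, ironomycin, ibrutinib and both, and at most 13 in a library of the other lines. IGHA2 had 1.99 in MAVER1 and 0.56 in JEKO1, and IGKV1-37 had 2.13 and 1.05. IGLV6-57 gave 0.50, -1.28 and -0.42, with 16 to 62 reads in a JVM2 library.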

How the results depend on the processing

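The lines gave 1 library per treatment, so that the replicates of a treatment are the lines, and few reads limit most minor V genes. Of 1025 values of single genes under an alternative, 870 kept their side of the threshold, 143 lost it and 12 gained it. None changed sign where the gene was called in the main or the alternative fit. A change of sign in a gene called in neither was counted as kept. Where a count moved, the cause was not tested beyond the construction of the alternative. The counts below are of immunoglobulin genes alone. Shares over all genes were not counted under the alternatives, so a moved count may follow a general change in calls.

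With ironomycin against control (0 called), there were 4 without the filter on low counts, 1 with only the libraries of the 2 groups compared and 2 with DESeq2. Leaving out 1 line gave 0 to 7, the 7 without JVM2. With ibrutinib against control and with both drugs against ironomycin (0 each), leaving out 1 line gave 0 to 0, and the second had 1 with only the 2 groups. With both drugs against control (9), there were 14 without the filter, 15 with no fold change minimum, 0 with no replicate block (the cell line term dropped), 0 with only the 2 groups, and 5 with DESeq2, and leaving out 1 line gave 0 to 11, with 0 without JEKO1 or MAVER1. With both drugs against ibrutinib (8), there were 0 with no replicate block and 2 with only the 2 groups, and leaving out 1 line gave 0 to 12. Dropping the block from the other pooled comparisons left them at 0.

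Within lines, the ironomycin count in JEKO1 (13) was 33 with no fold change minimum and 8 with DESeq2, and 10 to 19 with 1 library of the line left out. In JVM2 (7) it was 4 without the filter, 4 without the term for the other drug, and 0 to 0 with 1 library left out. In MAVER1 (7) it was 16 with no fold change minimum and 6 to 6 with 1 library left out. The ibrutinib count in JEKO1 (3) was 11 with no fold change minimum and 0 without the term for the other drug, and 3 to 7 with 1 library left out, the 7 without the control or the ibrutinib library. In JVM2 it was 0 to 0 and in MAVER1 (0) it was 1 with no fold change minimum and 0 to 1 with 1 library left out. The difference between lines (14) was 9 without the filter, and 1 to 11 with 1 line left out, the 1 without JVM2 and 7 without MAVER1. With a library left out the remaining one is assumed to vary like the other groups.

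Library totals in place of TMM moved the median of all genes by more than 0.1 on the log2 scale in JEKO1 with ironomycin (0.17 against 0.03) and with both drugs (0.18 against 0.05 against control, 0.15 against 0.05 against ibrutinib). Of 78 class sums compared with the control of the same line, 53 were lower with TMM, 48 with library totals and 54 with DESeq2's size factors.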
